A study of Drosophila melanogaster with 18 samples.

Results

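Where the transcription factor Scalloped (Sd) sat on chromatin of the Drosophila eye-antennal disc was read by targeted DamID, as Dam-Sd against Dam alone in Set 1 of the study. The 6 libraries of this comparison, of 18 in the study, were taken by their titles, 3 of the Dam-Sd fusion and 3 of Dam alone. The other 12 libraries held Dam alone in Sets 2 and 3, Yki-Dam and Dam-Jra. All flies carried the driver Eyeless-Gal4 with the temperature-sensitive repressor Gal80ts, and the control carried UAS-Dam where the Sd group carried UAS-Dam-Sd. Eggs were laid at 25 °C, kept at 18 °C for 4 days to hold the transgenes silent, and moved to 29 °C for the last 24 hours, and discs were dissected early in the third instar. The fusion was therefore supplied by a transgene, next to the disc's own Sd, and only in cells where Eyeless-Gal4 acts. Nothing in the labels tells if the 3 replicates of a group came from different crosses or from pooled animals, so p-values may measure technical spread.

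Sd is the fly member of the TEAD family of DNA-binding proteins. It recruits the coactivator Yorkie (Yki), which the Hippo kinases keep out of the nucleus, and it also works with Vestigial or, when Yki is absent, with the repressor Tgi. In DamID a bacterial adenine methyltransferase marks GATC sites near the protein it is fused to, and cut, methylated fragments are amplified and sequenced, so the reads measure occupancy over a time and not transcription. Dam alone marks accessible DNA and is the background that the fusion is read against.

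The deposited table gave reads at 767321 ends of GATC sites, and an end is 1 side of a site on its own strand. Library totals lay between 26163560 and 36884351 reads. The 1% of ends with most reads held 41.7 to 51.6% of reads in the Dam-Sd libraries and 16.9 to 24.8% in Dam of Set 1, and the groups did not overlap. Replicate 3 of each group had the lowest share of its group. Dam-Sd libraries had a read at 45.06 to 57.26% of ends and Dam of Set 1 at 63.63 to 65.67%, also without overlap. Levels are given as CPM, counts per 1e6 reads scaled by the trimmed mean of M values (TMM), and the log2 fold change is that of Dam-Sd against Dam of Set 1 with its standard error (SE), 3 libraries a group. A gene window is the gene with 1 kb on each side, all ends summed, and calls were made at an adjusted p below 0.05 with edgeR's quasi-likelihood test and Benjamini-Hochberg adjustment. In discs with many cell types, fewer marked cells and less marking per cell cannot be told apart.

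Of 14090 windows tested, 7946 (56.4%) were called, 3682 (26.1%) of them higher in Dam-Sd and 4264 (30.3%) lower. The median window changed by -0.17 on the log2 scale, with the middle of the distribution, from quartile to quartile, between -0.79 and 0.63. More than 4-fold changes were more often gains, with 583 windows called higher and 227 called lower by that size. At single ends the order was the reverse, with 29102 ends called more than 4-fold higher and 45550 called more than 4-fold lower. Fewer ends had a read in the Dam-Sd libraries, and the part of this in the losses was not tested. Over all sizes 51418 of 394539 ends (13.0%) were higher and 61242 (15.5%) lower. The scaling sets the split of windows: with library size alone 921 were higher and 10808 lower and the median moved to -1.45, so every change here is a change relative to the bulk of windows. At ends that scaling gave 19261 higher and 159719 lower. Leaving out Dam Set 1 replicate 3 left 33586 higher and 40548 lower ends. Without Dam-Sd replicate 1 the lower ends were 34245, and without Dam-Sd replicate 2 they were 36126.

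Called ends were not spread evenly over genes and the space between them. Between genes, 0.5 to 5 kb from the nearest gene boundary, 18.3% of ends were higher and 6.48% lower. Farther than 5 kb from any gene the shares were 15.7% and 5.55%. Inside genes, more than 0.5 kb from a boundary, they were turned around, at 12.5% higher and 19% lower. Within 0.5 kb of a gene boundary 10.2% of ends were higher, the lowest share of the 4 classes, and 15.4% lower. The major chromosome arms were alike, with 12 to 14.3% of ends higher, whereas 7.24% were higher on chromosome 4 and 3.92% on the Y.

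Windows that Dam alone reached often also gained most. When windows were ranked by reads per kb in Dam of Set 2, which is not in the comparison, 5.32% of the lowest 10% of windows and 69.3% of the highest 10% were higher in Dam-Sd, and the median log2 change went from -0.37 to 1.21. Long genes gained more often than short ones, with 56.3% of genes over 30 kb higher against 19.3% of genes of 1 to 3 kb. Genes of 10 to 30 kb were higher in 49.5% of windows and lower in 18.1%. Length and Dam density did not stand for each other: in the highest 10% by density the median was 1.04 for the 1224 genes up to 10 kb and 2.04 for the 172 longer ones, and in the lowest 10% it was -0.44 for 1096 and -0.26 for 248. Median gene length was 2.13 kb over all windows, 9.11 kb for the retinal determination list below, 25.1 kb for the epithelial transcription factors and 0.96 kb for the E(spl) and Bearded genes. The short E(spl) and Bearded genes had a high Dam density, with a median of 26.6 CPM per kb in Dam of Set 2. That median was 12.2 for retinal determination and 6.86 for the epithelial transcription factors, against 4.74 over all windows. Long genes without gain were there too: the Dpr and DIP list had a median length of 32.5 kb, 1.46 CPM per kb in Dam of Set 2 against 4.74 over all windows, and a median log2 change of -0.23. The part of length and Dam density in the results on lists was not tested.

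**Figure D1:**
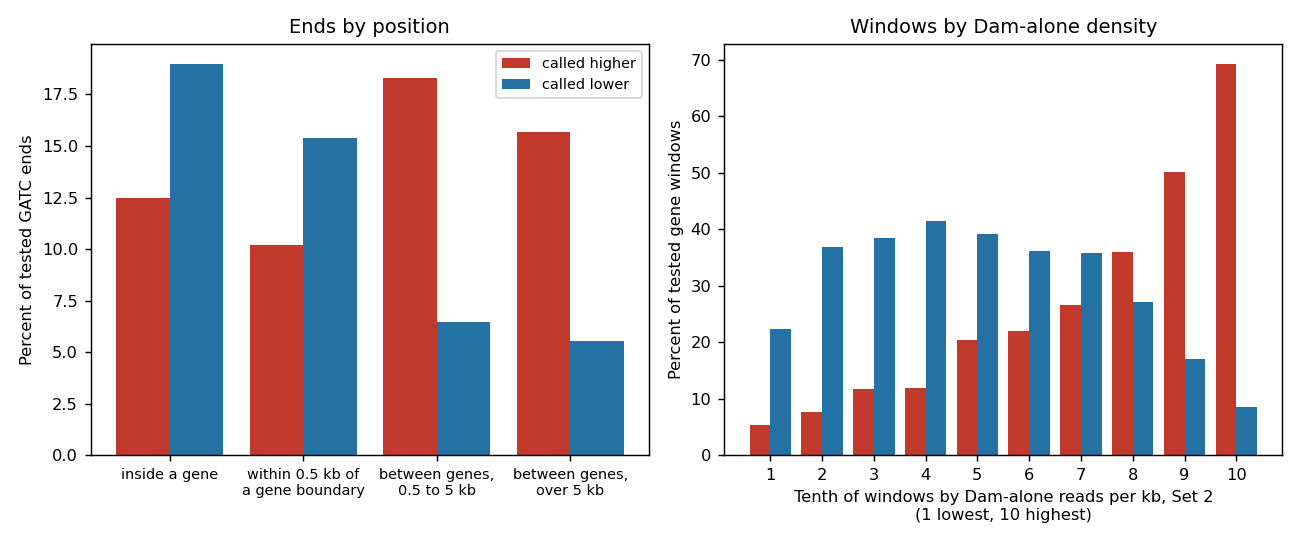
Percent of tested GATC ends called higher or lower in Dam-Sd by position (left), and percent of tested gene windows called higher or lower in 10 bins of equal size by Dam-alone reads per kb in Set 2 (right). Higher ends outnumber lower ones between genes and are outnumbered inside genes, and the share of higher windows climbs from 5.32% to 69.3% over the bins.

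Neighbouring ends moved together. The 2 ends of a fragment, which are cut and amplified as 1 molecule, had r = 0.864 over 171038 pairs, and 85% of higher ends had a higher partner. Across a site, where the 2 ends belong to neighbouring fragments, r was 0.61 over 126950 pairs. Joining called ends within 2000 bases gave 7333 runs of higher ends and 11477 of lower ends. Of these, 2600 higher and 3214 lower runs held at least 6 ends, with a median length of 2.9 and 3.45 kb and a longest run of 28.7 and 36.6 kb.

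The run with most called ends, chr3R:25627974-25648992 (dm6), spanned 21 kb and held 133 higher ends of 174 tested and 0 lower. It covers 11.2 kb of jigr1, which codes for a DNA-binding protein, and mir-92a, a microRNA gene within jigr1. Summed over that run the Dam libraries held 1100, 1039 and 457 CPM and the Dam-Sd libraries 5872, 5886 and 2599 CPM. Every Dam-Sd library lay above every Dam library, and replicate 3 was the lowest of both groups. Next came chr3L:606045-627859, with 119 higher ends of 140, which starts in Reg-2 and ends 14.3 kb before the growth-promoting microRNA gene mir-ban. Reads there were 843, 713 and 372 CPM in Dam and 7372, 6852 and 2993 CPM in Dam-Sd. The Reg-2 window was 2.05 (SE 0.18) higher, but 0.69 with an adjusted p of 0.0579 when the flanks were left off.

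A long run also lay in Notch (N), the receptor of the Notch pathway. The run chrX:3134782-3163432 was 28.7 kb long, 99.7% of it inside N, with 116 higher ends of 175 and no lower end. Its reads were 551, 492 and 297 CPM in Dam and 2921, 2362 and 1380 CPM in Dam-Sd, again without overlap. Beyond the run, as the profile of single ends shows, N had ends that fell. A similar stretch, chr2R:18216702-18234078, held 96 higher ends of 105 beside and into fj, which codes for the Golgi kinase that tunes Fat and Dachsous. Its levels were 494, 415 and 236 CPM in Dam against 3372, 3255 and 1447 CPM in Dam-Sd. The runs over boi, a co-receptor for Hedgehog (94 higher ends of 117), Ca-beta, a calcium channel subunit (91 of 112), and a stretch before and into the Wnt ligand gene wg (100 of 167) held no lower end either. A run of 117 higher ends started 706 bases from drm, a zinc-finger gene of the odd-skipped family.

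**Figure D2:**
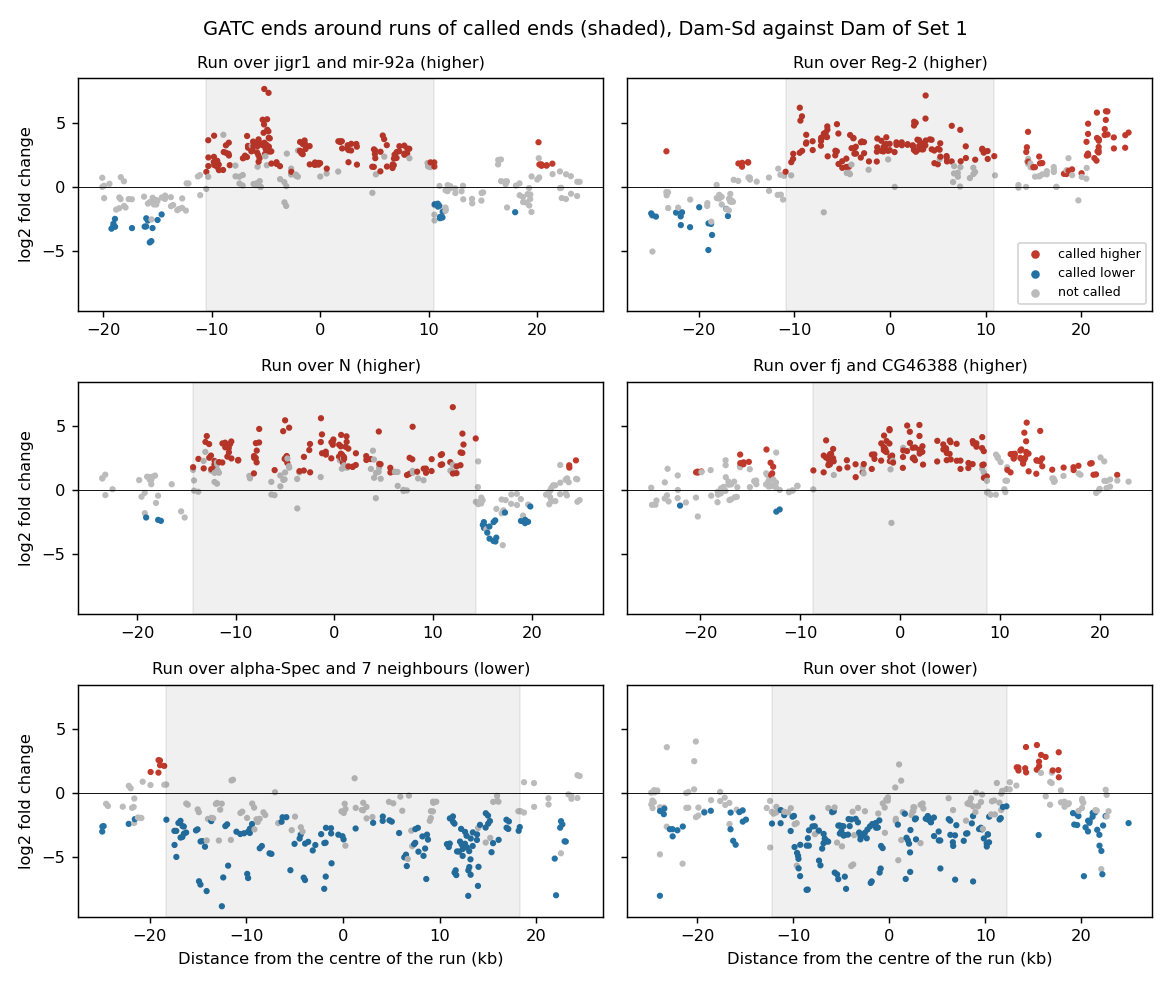
log2 fold change of single GATC ends, Dam-Sd against Dam of Set 1, by distance in kb from the centre of 6 runs (shaded): 4 runs of higher ends and 2 of lower ends. Points are ends, coloured by their call; within the shading all called ends lie on 1 side of 0, and ends of the other call appear outside it.

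Ranked by the mean log2 change of their called ends, small runs came first among runs of at least 6 such ends. That mean leaves out ends without a call, and some of these stretches held few reads. The 6 called ends of chr3R:6803820-6805831, 1392 bases from the Hox gene Dfd, averaged 5.81 on the log2 scale, and their stretch held 2.89, 3.08 and 4.06 CPM in Dam against 34.6, 19.3 and 23.1 CPM in Dam-Sd. Summed over its 9 tested ends the group mean went from 3.34 to 25.7 CPM, beside 643 to 5739 CPM in the long run from Reg-2. At chr2R:7025053-7025825, in the tetraspanin gene Tsp42Ef, 10 of 10 ends were higher by 4.25 on average. That stretch went from 40.9, 34 and 22.3 CPM to 699, 621 and 425 CPM. Other short runs of this kind lay in the potassium channel gene SK, with 9 of 11 ends higher by 4.31 on average, and 2243 bases from CG14974, with 10 of 11 ends. The SK window, which holds its run, was not called, at 0.31 (SE 0.27), so this gain was local within a gene whose summed signal did not pass the test. The run near CG14974 lies beyond the 1 kb flank of that gene. Its window, at 0.17 (SE 0.32) and not called, therefore holds no end of the run and does not bear on it.

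Losses also came in long stretches. The largest, chr3L:1756404-1792989, held 136 lower ends of 205 and 0 higher over 36.6 kb and 8 genes. Among these genes are alpha-Spec, which codes for spectrin of the membrane skeleton, the dynein gene Dhc62B, the DNA polymerase gene PolD2 and mRpL46, for a mitochondrial ribosomal protein. Dam held 250, 204 and 287 CPM there and Dam-Sd 24.6, 43.7 and 69.1 CPM. The alpha-Spec window fell by 2.14 (SE 0.22) and that of Dhc62B by 1.80 (SE 0.28), but the window of CG8001 at the border of the run was higher by 1.82 (SE 0.23). Over the ends of its own CG8001 was lower, at -2.82 (adjusted p 5.54e-07), so its gain came from ends it shares.

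In 2 very long genes gain and loss stood side by side. Within shot, which codes for a linker of actin and microtubules, chr2R:13870421-13894862 held 127 lower ends of 196 and 0 higher, from 363, 311 and 465 CPM in Dam to 68.3, 64.8 and 146 CPM in Dam-Sd. Yet the whole shot window was higher by 1.22 (SE 0.26), with 1113, 910 and 1004 CPM in Dam and 3364, 2271 and 1419 CPM in Dam-Sd. The same held for dpy, a giant protein of the apical matrix, in which 2 runs of 104 and 81 lower ends lay inside a window that was higher by 1.18 (SE 0.27). Both window calls were lost when only the libraries of the comparison were fitted, with adjusted p 0.0729 for shot and 0.146 for dpy. A window's fold change can therefore be the sum of opposite parts.

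The windows with the largest changes were picked among called windows whose Dam-Sd and Dam libraries did not overlap. Beyond the genes best known as Hippo targets, ETH, the ecdysis-triggering hormone gene, had 98.3, 93.1 and 83.4 CPM in Dam against 1325, 1084 and 727 CPM in Dam-Sd, a rise of 3.51 (SE 0.24, adjusted p 8.35e-09). Blistery (by), the fly tensin, which ties integrins to actin, rose by 3.27 (SE 0.27), from 153, 119 and 102 CPM to 1588, 1388 and 649 CPM. For both genes the lack of overlap between libraries was a condition of the choice. In by, 21 of 36 tested ends were higher and 0 lower, while in ETH 9 of 24 were higher and 1 lower. Because 89.8% of windows share ends with another window, a change can belong to a neighbour. The rise of His2Av, a histone variant gene, was 3.68 with flanks and 0.22 without them (adjusted p 0.715), and that of mav, a BMP-type ligand gene, was 3.33 (SE 0.27) over all ends and 0.07 (adjusted p 0.827) over ends that lie in no other window. The glycosyltransferase gene Ugt302C1 turned from 3.58 to -0.11 over such ends.

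**Figure D3:**
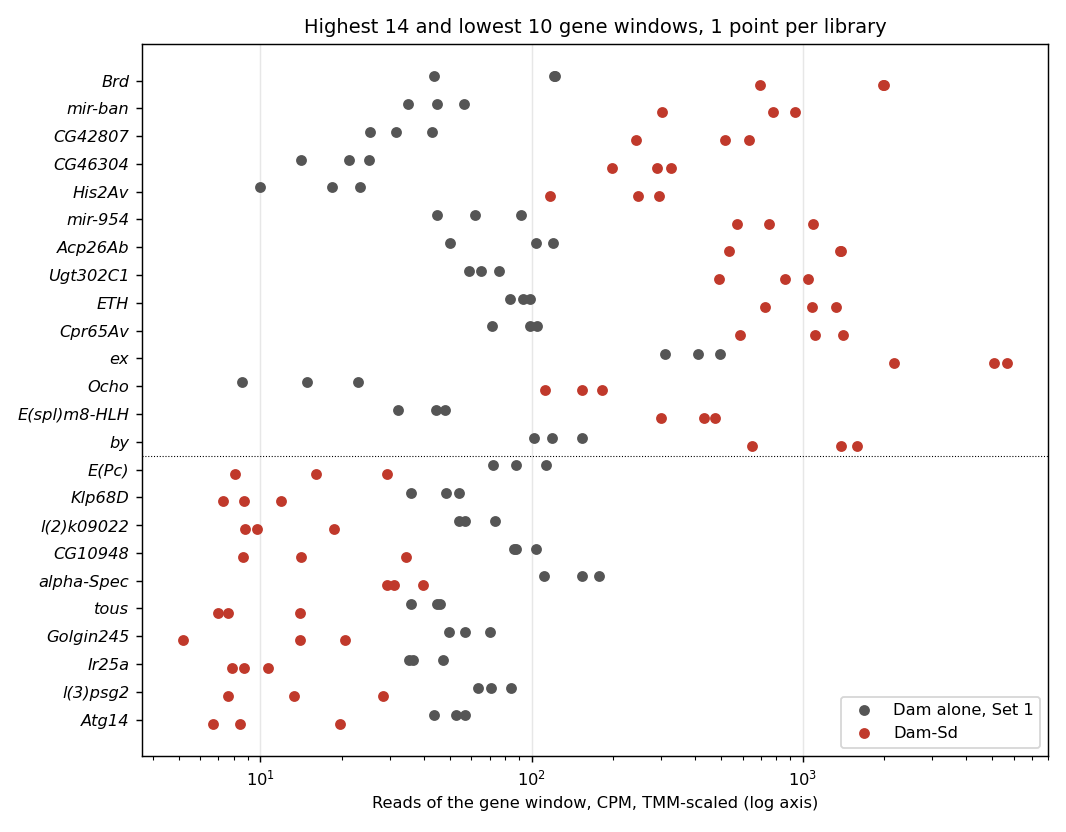
Reads of 24 gene windows in CPM on a log axis, 1 point per library, for Dam of Set 1 (grey) and Dam-Sd (red): the 14 highest (above the dotted line) and 10 lowest called windows by the naming rule. That rule takes only windows in which the 3 Dam-Sd points lie wholly to 1 side of the 3 Dam points.

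Among the lowest windows were tous, a chromatin remodelling gene, Golgin245, a protein of the trans-Golgi, Ir25a, a co-receptor of the ionotropic receptors, and Atg14, a subunit of the autophagy lipid kinase. The tous window went from 44.8, 35.8 and 45.9 CPM in Dam to 6.99, 7.59 and 14 CPM in Dam-Sd, a fall of 2.12 (SE 0.24, adjusted p 7.58e-07), with 20 of its 32 tested ends lower and 0 higher. All 10 lowest windows had 0 higher ends. The Atg14 window fell by 2.10 (SE 0.30), but no end of it lies in that window alone.

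Genes that set up the eye field were among the most uniformly higher. Of 17 retinal determination windows 15 were higher and 1 lower, with a median of 1.80 against -0.17 over all windows. The shares over all windows, 26.1% higher and 30.3% lower, are the background for this list and every later one. The homeobox gene so rose by 2.82 (SE 0.32), from 340, 320 and 179 CPM in Dam to 2370, 2558 and 990 CPM in Dam-Sd. Optix, a homeobox gene of the same family, rose by 2.75 (SE 0.32), and the cofactor genes dac and eya by 2.48 (SE 0.27) and 2.44 (SE 0.30). In so and Optix every Dam-Sd library was more than the highest Dam library. The Pax gene ey, whose regulatory DNA the driver borrows in both groups, was 2.14 (SE 0.30) higher. The exception was Pph13, a homeobox gene of late photoreceptors, which fell by 2.17 (SE 0.30), from 19.3, 18.8 and 25.2 CPM to 1.24, 5.11 and 7.18 CPM.

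Selectors of the antenna and head capsule followed the same pattern, with 17 of 20 windows higher, 1 lower and a median of 1.64. B-H2, a homeobox gene of the distal antenna, had 49.6, 51.2 and 30.5 CPM in Dam and 577, 466 and 200 CPM in Dam-Sd, a rise of 3.25 (SE 0.36). The zinc-finger gene rn rose by 2.70 (SE 0.32) and the LIM-homeobox gene Lim1 by 2.35 (SE 0.25). The lower member, exd, the partner of Hox proteins, was at -0.68 (SE 0.28, adjusted p 0.048), a call lost without Dam Set 1 replicate 3 (adjusted p 0.189) and without either Dam-Sd replicate 1 or 3. Of 32 other epithelial transcription factors 24 were higher and 1 was lower, with a median of 1.27. They included br, an ecdysone-induced zinc-finger gene at 2.52 (SE 0.27), and psq, a BTB protein gene at 2.37 (SE 0.27), whereas the POU gene vvl fell by 1.30 (SE 0.31). With the replicate block 2 were lower, as without Dam Set 1 replicate 1 or Dam-Sd replicate 3. Among the Hox genes themselves the largest gains were at genes of the head: Dfd rose by 2.29 (SE 0.22), lab by 1.93 (SE 0.21) and pb by 1.04 (SE 0.18). Antp was also higher, by 0.67 (SE 0.19), a call lost without Dam-Sd replicate 2 (adjusted p 0.0554), and the other 6 of the 10 windows were not called.

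Of 21 windows of Sd and the proteins it is known to work with, 10 were higher and 4 lower, with a median of 0.48. The sd window itself was among the higher ones, at 1.59 with the replicate block. Only the Dam-Sd group carried a transgene of Sd, and its part in the reads of that window was not tested. The highest were Trl, which codes for the GAGA factor, at 2.74 (SE 0.34), the homeobox gene hth at 2.27 (SE 0.28) and osa of the Brahma complex at 2.17 (SE 0.26). Trl shares all but 2 of its 94 ends with other windows. Tgi, the corepressor that Sd binds when Yki is absent, rose by 1.90 (SE 0.25), from 405, 281 and 216 CPM to 1393, 1147 and 821 CPM. Vestigial (vg), the wing partner of Sd, was higher by 1.31 (SE 0.22), from 34.8, 34.5 and 25.9 CPM to 73.1, 98.5 and 63.8 CPM. The lowest windows of the list were Ncoa6 and Wbp2, which code for coactivators of Yki. Ncoa6 fell by 2.15 (SE 0.23), from 50.7, 38.7 and 58 CPM to 9.27, 7.46 and 15.9 CPM, and Wbp2 by 2.04 (SE 0.24). The Wbp2 call was lost over its own ends, at -0.85 (adjusted p 0.259), of which it has 2.

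In the Wnt pathway the highest windows were those of receptors, surface proteins and feedback genes. Of 27 windows 17 were higher and 7 lower, with a median of 1.22. The receptor genes arr and fz2 rose by 2.67 (SE 0.27) and 2.62 (SE 0.27), and nkd, an inhibitor that the pathway itself induces, by 2.64 (SE 0.28). The arr window held 355, 383 and 221 CPM in Dam and 2323, 2499 and 1295 CPM in Dam-Sd. Of the ligand genes, Wnt6 was at 2.30 (SE 0.29) and wg at 1.50 (SE 0.22), and the glypican gene dlp, whose product holds Wnt at the surface, was at 2.31 (SE 0.26). The lower members were wls, the Wnt cargo receptor, at -1.26 (SE 0.40), pygo, a nuclear cofactor, at -0.87 (SE 0.23), the destruction complex genes Axn, Apc and Apc2, at -0.79 (SE 0.20), -0.59 (SE 0.22) and -0.51 (SE 0.19), por and lgs. Not all genes that act inside the cell were among them, since the kinase gene sgg and the TCF gene pan were higher, at 1.20 (SE 0.20) and 1.74 (SE 0.44). With DESeq2's size factors 3 of the list were lower. Without Dam Set 1 replicate 3 or Dam-Sd replicate 2 the calls of wls, Apc, Apc2 and lgs were lost. That of wls was also lost without Dam-Sd replicate 1 and that of Apc without Dam-Sd replicate 3, and por lost its call without Dam Set 1 replicate 1 or 2 or Dam-Sd replicate 1 or 3.

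Of 18 Hedgehog windows 10 were higher and 4 lower, with a median of 0.91. The ligand gene hh rose by 2.70 (SE 0.32), from 259, 262 and 142 CPM to 1612, 1859 and 840 CPM. Its receptor gene ptc was at 2.69 (SE 0.30) and the co-receptor gene boi at 2.58 (SE 0.28). The transcription factor gene ci was at 1.42 (SE 0.43), a call lost without Dam-Sd replicate 1 (adjusted p 0.0511). In contrast cos, the kinesin-like scaffold that carries the signal inside the cell, fell by 2.11 (SE 0.26), from 37.6, 30.5 and 44.1 CPM to 6.68, 7.09 and 11.8 CPM. The Hedgehog transporter gene disp fell by 1.32 (SE 0.21) and the kinase gene fu by 1.10 (SE 0.26).

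Of 25 BMP and Activin windows 14 were higher and 3 lower, with a median of 1.01. Besides mav, the inhibitory Smad gene Dad, an induced brake on the pathway, rose by 2.58 (SE 0.30) and tok, a protease that frees ligand, by 2.49 (SE 0.27). The type I receptor gene tkv was at 2.41 (SE 0.28), the target gene bi at 2.39 (SE 0.32), the type II receptor gene put at 2.24 (SE 0.20) and the ligand gene dpp at 1.90 (SE 0.24). With the replicate number as a block 5 were lower. The 3 lower windows were those of the ligand scw (-1.62, SE 0.35, and -0.64 without flanks), the Activin receptor gene babo (-1.27, SE 0.19) and the co-Smad gene Med (-0.94, SE 0.20). For put, Dam held 74.8, 68.6 and 77.8 CPM and Dam-Sd 434, 363 and 250 CPM, while babo went from 67.6, 68.1 and 79.9 CPM to 23.2, 28.5 and 36.9 CPM. Neither receptor's groups overlapped, and the 2 moved in opposite directions.

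For EGFR signalling 17 of 28 windows were higher and 3 lower, with a median of 1.26. Yan (aop), the repressor that the pathway switches off, rose by 3.07 (SE 0.29), from 1022, 837 and 589 CPM in Dam to 8548, 7754 and 4264 CPM in Dam-Sd. The photoreceptor fate gene phyl was at 2.77 (SE 0.30), and the feedback inhibitors sty and aos were at 2.55 (SE 0.28) and 2.53 (SE 0.25). The receptor gene Egfr was at 2.25 (SE 0.30), its ligand gene spi at 2.19 (SE 0.29) and the effector gene pnt at 2.23 (SE 0.28). Lower windows were ksr, the scaffold of the kinase cascade (-1.20, SE 0.27), the MAP kinase gene rl (-0.86, SE 0.25) and the adaptor gene Shc (-0.69, SE 0.22), the last a call lost without Dam-Sd replicate 2 (adjusted p 0.0511). All ends of aos and all ends of ksr are shared with other windows.

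Notch signalling had calls in both directions, as all windows had. Of 23 core windows 8 (34.8%) were higher and 9 (39.1%) lower, with a median of 0.16, against 26.1% and 30.3% of all windows. The glycosyltransferase gene fng rose by 2.33 (SE 0.28), N by 2.32 (SE 0.28) and neur, an E3 ligase that acts on ligands, by 2.20 (SE 0.25). The lowest were Su(dx), an E3 ligase that acts on the receptor (-1.82, SE 0.27), and pen-2, a subunit of gamma-secretase (-1.50, SE 0.42, and not called without flanks). Where the core was mixed, the E(spl) and Bearded complexes, the classic Notch targets, were nearly uniform: 15 of 16 windows were higher and 0 lower, with a median of 1.99. Their genes lie close together, and 5 of them sit in 1 run, chr3R:25997076-26016326, with 108 higher and 2 lower ends of 157. The Bearded family gene Ocho rose by 3.31 (SE 0.28) and the repressor gene E(spl)m8-HLH by 3.29 (SE 0.25). The E(spl)mgamma-HLH window rose by 2.71 (SE 0.28) with flanks and stood at 0.42 without them (adjusted p 0.16). Of 22 proneural and neural precursor windows 15 were higher and 1 lower, with a median of 1.14. The Hes-type repressor gene dpn had 196, 134 and 63.6 CPM in Dam and 1048, 1130 and 495 CPM in Dam-Sd, a rise of 2.77 (SE 0.36). The proneural gene ac was at 2.57 (SE 0.31), and at 1.09 (adjusted p 0.0804) without flanks. The lower member was amos, a proneural gene of olfactory organs, at -0.89 (SE 0.26). Without Dam-Sd replicate 3 the lower windows numbered 2. With flanks left off, 9 windows of the list were higher.

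In the JAK-STAT list 10 of 15 windows were higher and 4 lower, with a median of 0.89. The transcription factor genes ken and apt were highest, at 2.50 (SE 0.30) and 2.25 (SE 0.26), and the feedback gene Socs36E was at 1.91 (SE 0.29). The receptor gene dome and its antagonist et fell by 1.13 (SE 0.29) and 1.16 (SE 0.24), and the kinase gene hop by 0.92 (SE 0.17). Higher windows came to 6 when flanks were left off.

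The planar polarity list joined the Fat-Dachsous branch, which feeds into Hippo signalling, with other polarity genes such as Vang and fy. Of 18 windows 12 were higher and 3 lower, with a median of 0.92. The F-box gene Fbxl7 rose by 2.92 (SE 0.29), from 478, 408 and 284 CPM in Dam to 3819, 3354 and 1711 CPM in Dam-Sd. The genes fj and ds were at 2.55 (SE 0.29) and 2.43 (SE 0.29), and ft, whose product is the receptor for Dachsous, was at 2.33 (SE 0.25). The core polarity gene Vang fell by 1.21 (SE 0.28), from 33.4, 31 and 39.9 CPM to 6.27, 12.4 and 24.9 CPM, and fy fell by 0.79 (SE 0.17).

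Junction and matrix genes were mostly higher as well. Median gene length was 14.4 kb in the junction and polarity list and 15.1 kb in the matrix list. Of all genes of 10 to 30 kb, 49.5% were higher and 18.1% lower, and the part of length in these counts was not tested. Of 26 septate junction and apical polarity windows 15 were higher and 4 lower (median 0.69), led by the adherens junction gene cno at 2.67 (SE 0.27), pyd at 1.90 (SE 0.30) and the Crumbs complex gene sdt at 1.67 (SE 0.23). In the same list alpha-Cat fell by 1.37 (SE 0.34) and Mcr by 1.14 (SE 0.23). Of 24 basement membrane and integrin windows 15 were higher and 5 lower (median 0.76). The laminin gene LanB2 rose by 2.29 (SE 0.24), from 110, 125 and 113 CPM to 777, 618 and 300 CPM. The integrin gene mew was at 2.03 (SE 0.32) and Vinc, vinculin, at 2.02 (SE 0.29), while Ilk, the integrin-linked kinase gene, fell by 1.71 (SE 0.28) and Pxn by 1.45 (SE 0.28).

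Of 31 windows of ecdysone response and developmental timing 20 were higher and 4 lower, with a median of 1.16. The highest was lin-28, an RNA-binding regulator of let-7 microRNAs, which went from 37.5, 29.2 and 22.4 CPM in Dam to 254, 280 and 160 CPM in Dam-Sd, a rise of 2.96 (SE 0.25). The BTB zinc-finger gene chinmo, which acts in the early larval state, was at 2.65 (SE 0.28), and Ilp8, the relaxin-like signal by which disturbed discs delay pupariation, was at 2.19 (SE 0.27). The receptor gene EcR rose by 2.28 (SE 0.26), from 987, 942 and 707 CPM to 5381, 4882 and 2528 CPM. Its partner gene usp was at -0.48 (SE 0.19, adjusted p 0.0397), a call lost without Dam-Sd replicate 2 (adjusted p 0.139) or without Dam Set 1 replicate 1 or 2, and all ends of usp are shared. The 2 subunits of 1 receptor thus differed in sign, as did gce, at 1.82 (SE 0.31), and Met, at -0.72 (SE 0.21), the paired juvenile hormone receptors.

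**Figure D4:**
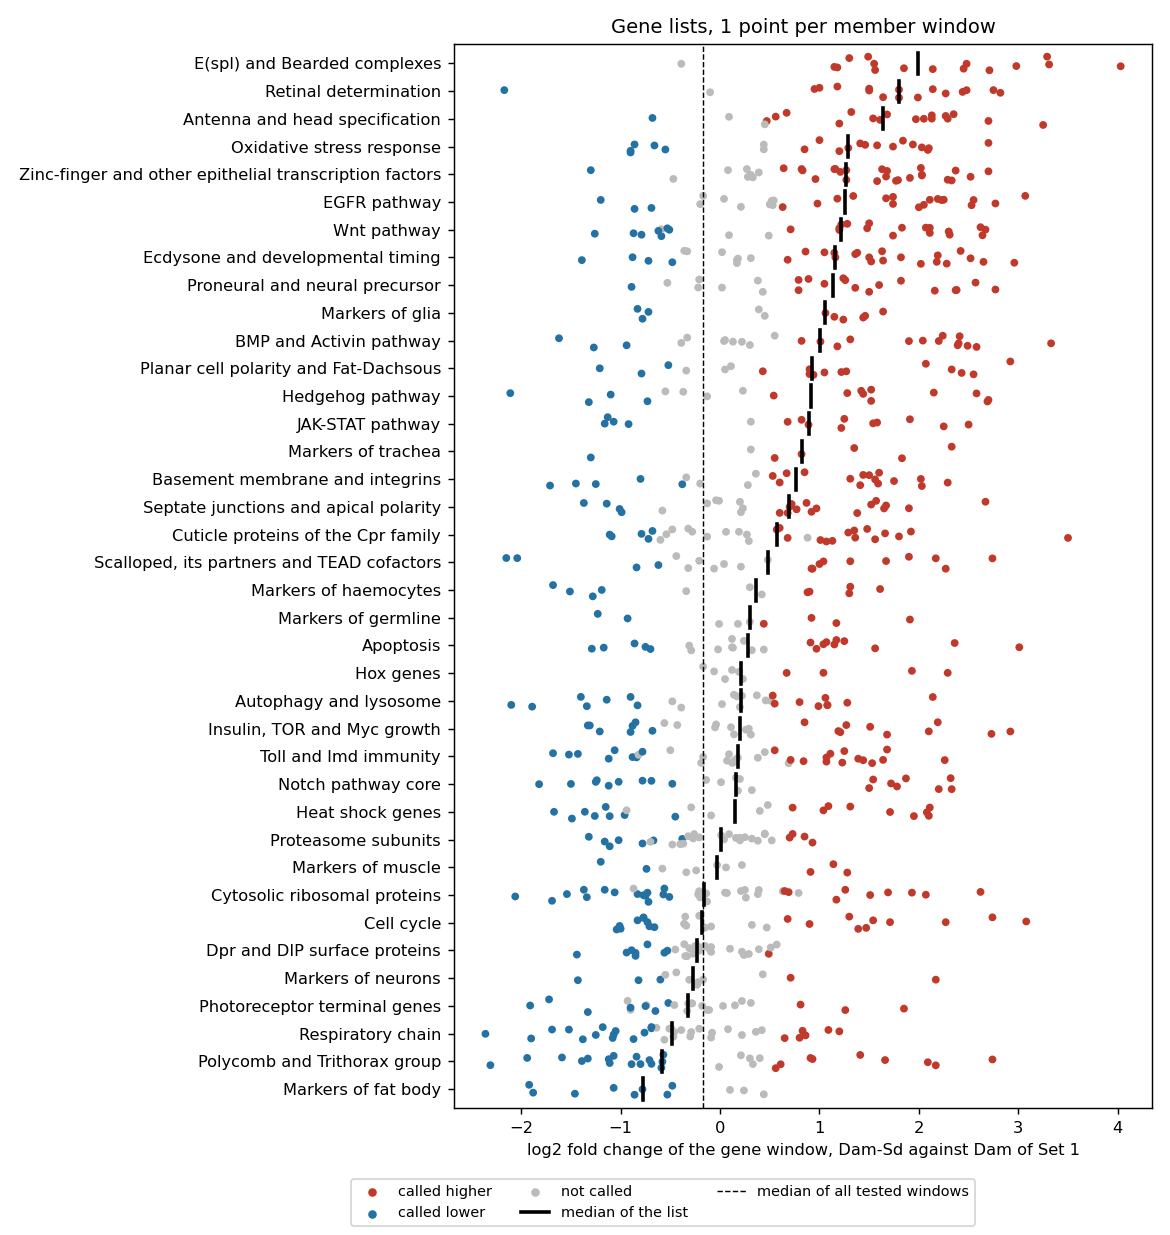
log2 fold change of every tested member window, Dam-Sd against Dam of Set 1, for 38 gene lists ordered by their median (black bars), with calls in colour. The dashed line is the median of all tested windows, -0.17; E(spl) and Bearded genes lie at the top with a median of 1.99 and the fat body markers at the bottom with -0.78.

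Of 26 insulin, TOR and Myc windows 10 were higher and 7 lower, with a median of 0.20. Pdk1, the kinase that activates Akt, rose by 2.92 (SE 0.27), from 299, 271 and 198 CPM to 2585, 2100 and 1109 CPM, and foxo, the transcription factor that insulin restrains, by 2.73 (SE 0.30). The receptor gene InR was at 2.10 (SE 0.21) and Myc at 0.85 (SE 0.21). In the other direction, the lipid kinase gene Pi3K92E fell by 1.33 (SE 0.18), Tsc1 by 1.31 (SE 0.29) and Akt by 0.88 (SE 0.23). In the cell cycle list 10 of 28 (35.7%) were higher and 9 (32.1%) lower, against 26.1% and 30.3% of all windows. Its median was -0.18. Its highest windows were those of inducers of the cycle: stg, the mitotic phosphatase, rose by 3.08 (SE 0.34), E2f1, the S-phase transcription factor, by 2.74 (SE 0.29) and CycE by 2.27 (SE 0.27). For stg the levels were 354, 372 and 158 CPM in Dam and 2877, 3207 and 1361 CPM in Dam-Sd. The replication licensing genes dup and Orc1 fell by 1.04 (SE 0.23) and 1.00 (SE 0.20), and aurB by 1.01 (SE 0.30).

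Of 24 apoptosis windows 10 were higher and 5 lower, with a median of 0.28. Next to Diap1, the TNF receptor gene grnd was at 2.36 (SE 0.36) and the killer gene hid at 1.56 (SE 0.23), from 246, 230 and 142 CPM to 744, 669 and 409 CPM. The lowest, Diap2, at -1.29 (SE 0.42), lost its call without Dam Set 1 replicate 1 (adjusted p 0.085). The oxidative stress list had a median of 1.29, with 14 of 21 windows higher and 5 lower. Of its regulators cnc, the fly Nrf2, rose by 1.94 (SE 0.26) and its inhibitor Keap1 by 2.09 (SE 0.23), and the glutathione transferase gene GstD2 by 2.70 (SE 0.27). The lower members were ref(2)P and maf-S, which codes for the DNA-binding partner of cnc, both at -0.90, Sod2 at -0.86, Sod1 at -0.66 and Cat at -0.55. The call of Cat was lost without any 1 of 5 libraries, all but Dam Set 1 replicate 1.

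Immune, heat shock and autophagy lists had calls in both directions, beside 26.1% of all windows higher and 30.3% lower. In that order, 40%, 40.9% and 34.6% of their windows were higher and 22.9%, 36.4% and 26.9% lower. Of 35 Toll and Imd windows 14 were higher and 8 lower (median 0.18). The adaptor gene imd and the inhibitor gene cact were highest, at 2.26 (SE 0.24) and 1.68 (SE 0.22), whereas the adaptor gene tub was lower, at -1.06. The antimicrobial peptide genes AttB and Drs were lowest, at -1.68 (SE 0.39) and -1.52 (SE 0.26), neither of them called without flanks. The lower windows numbered 5 without Dam Set 1 replicate 3 and 5 without Dam-Sd replicate 2. Of 22 tested heat shock windows, of 23 listed, 9 were higher and 8 lower (median 0.15). Genes of the small heat shock cluster such as Hsp67Bc and Hsp22 were at 2.11 (SE 0.38) and 2.10 (SE 0.37), but Hsp67Bc was at 0.21 without flanks. The lowest were Hsc70-5 at -1.67 (SE 0.21) and Hsp70Aa at -1.49 (SE 0.33), the latter 1 of several near-identical copies among which reads may have been divided. Of 26 autophagy and lysosome windows 9 were higher and 7 lower (median 0.21). The proton pump genes Vha16-1 and Vha55 were highest, at 2.14 (SE 0.26) and 1.28 (SE 0.27), and the lipid kinase genes Atg14 and Pi3K59F lowest, at -2.10 and -1.89 (SE 0.26).

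The Polycomb and Trithorax group was the regulatory list with most losses: 16 of 30 windows were lower and 9 higher, with a median of -0.58. E(Pc) fell by 2.31 (SE 0.27) and the Brahma subunit gene Bap60 by 1.94 (SE 0.23). Pc itself fell by 1.39 (SE 0.32), from 22.1, 14.8 and 28.4 CPM to 4.4, 5.34 and 14.5 CPM. In contrast, ph-p rose by 2.09 (SE 0.29), from 154, 116 and 78.1 CPM to 718, 525 and 244 CPM. It is the third of the higher members after Trl and osa. The methyltransferase gene E(z) was at -0.57 (SE 0.19), with its call lost without Dam Set 1 replicate 1 (adjusted p 0.0614) or Dam-Sd replicate 2 (adjusted p 0.0603).

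Of 36 respiratory chain windows 6 were higher and 14 lower (median -0.48), with ND-19 at -2.36 (SE 0.38) and ND-18 at -1.90 (SE 0.50) lowest and ND-75 highest at 1.20 (SE 0.27), followed by ND-39 at 1.09 (SE 0.24) and ATPsynD at 0.86 (SE 0.26). These gains changed with the ends counted. Over its own ends ND-39 was lower, at -3.75 (adjusted p 0.000248), and ND-75 was at 0.25, and without flanks ATPsynD was at -0.57 and ND-19 at -0.88, the last 3 not called. The call of ATPsynD was also lost without Dam Set 1 replicate 3 (adjusted p 0.0509). Of 40 cytosolic ribosomal protein windows 9 (22.5%) were higher and 15 (37.5%) lower (median -0.16), against 26.1% and 30.3% of all windows. RpL37A was at 2.62 (SE 0.37), RpS9 at 2.07 (SE 0.30) and RpL8 at 1.93 (SE 0.28), while RpL30 and RpL40 fell by 2.06 (SE 0.24) and 1.69 (SE 0.27). These genes are short and their flanks hold other genes. Without flanks RpL37A was at 0.62 and RpS9 at -0.39, neither called, and RpL8 was lower, at -1.06 (adjusted p 0.0152). Of 31 proteasome windows 4 were higher and 7 lower (median 0.01), with Prosalpha6 and Rpt5 at 0.93 (SE 0.25) and 0.85 (SE 0.25) and Rpn8 and Rpn5 at -1.32 (SE 0.26) and -1.16 (SE 0.30). Prosalpha6 was at 0.46 without Dam-Sd replicate 1 (adjusted p 0.101). The lower ones numbered 4 without Dam Set 1 replicate 1 and 3 without Dam-Sd replicate 2.

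Of 25 photoreceptor terminal windows 3 were higher and 7 lower (median -0.32). The rhodopsin gene Rh5 was at 1.85 (SE 0.28), and ninaE, the main rhodopsin, at 1.26 (SE 0.23), but -0.61 without flanks (adjusted p 0.0825). The rhodopsin chaperone gene ninaA and the channel gene trp were lowest, at -1.91 (SE 0.39) and -1.72 (SE 0.38). Of 32 Dpr and DIP windows, surface proteins of synaptic partners, 8 were lower and 1, dpr12, was higher at 0.49 (SE 0.18), with a median of -0.23. With the replicate block 3 were higher, and 4 without Dam Set 1 replicate 2, while dpr12 was not called without Dam Set 1 replicate 1 or 3 or Dam-Sd replicate 2. Leaving out a library moved the lower count to between 3 and 5 for Dam Set 1 replicates 2 and 3 and Dam-Sd replicates 1 and 2. Of 31 Cpr cuticle windows 15 were higher and 5 lower (median 0.57), led by Cpr65Av at 3.50 (SE 0.29), Cpr100A at 1.92 (SE 0.23) and Cpr78Cb at 1.80 (SE 0.28), with Cpr64Ad and Cpr72Ea lowest at -1.11 (SE 0.32) and -1.09 (SE 0.32).

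Markers of other cells gave no common direction. Their counts stand beside 26.1% of all windows higher and 30.3% lower. Of 11 fat body windows 0 were higher and 8 lower (median -0.78), with Lsp2, a larval storage protein, going from 52.5, 43.1 and 59.4 CPM to 8.96, 9.71 and 21.3 CPM. That count was 5 without Dam Set 1 replicate 3. Glial markers were higher in 6 of 11 windows and lower in 3 (median 1.06). The astrocyte gene alrm was highest, at 1.64 (SE 0.19), whereas the defining glial gene repo was lower, at -0.83 (SE 0.30), a call lost without Dam Set 1 replicate 3 or Dam-Sd replicate 1, where 1 glial window was lower. Of 12 neuronal windows 2 were higher and 3 lower, with Ace, acetylcholinesterase, at 2.17 (SE 0.25) and Vmat, the monoamine transporter, at -1.43 (SE 0.28). The counts were, of 12 haemocyte windows 5 and 4, of 11 muscle windows 3 and 2, of 9 germline windows 4 and 2, and of 7 tracheal windows 5 and 1. Among these the chitin deacetylase genes serp and verm of the trachea were at 2.33 (SE 0.29) and 1.83 (SE 0.22), the germline gene ovo at 1.91 (SE 0.27), the muscle factor gene Mef2 at 1.28 (SE 0.29), and the haemocyte genes He and PPO2 at -1.68 (SE 0.32) and -1.51 (SE 0.36). With the replicate block 5 neuronal and 4 muscle windows were lower. Without Dam Set 1 replicate 2 or Dam-Sd replicate 1, 1 muscle window was lower. Germline gains numbered 2 without Dam Set 1 replicate 1 or Dam-Sd replicate 1. Of these 7 lists summed, only the fat body markers held less in every Dam-Sd library than in every Dam library, and the other 6 held more. A sum follows the windows with most reads and can differ from the typical member. The median log2 change was -0.27 for neuronal and -0.03 for muscle markers, although their sums rose. It was 0.36 for haemocyte, 0.30 for germline and 0.82 for tracheal markers. Neuronal markers held 827 to 1125 CPM in Dam and 1673 to 2564 CPM in Dam-Sd. Glial markers held 757 to 935 CPM in Dam and 1203 to 2097 CPM in Dam-Sd. Haemocyte markers held 864 to 959 CPM in Dam and 1482 to 2359 CPM in Dam-Sd. Muscle markers held 1604 to 1761 CPM in Dam and 2180 to 3393 CPM in Dam-Sd. Fat body markers held 371 to 455 CPM in Dam and 288 to 325 CPM in Dam-Sd. Germline markers held 611 to 743 CPM in Dam and 967 to 1594 CPM in Dam-Sd. Tracheal markers held 639 to 857 CPM in Dam and 1622 to 2905 CPM in Dam-Sd. The markers were read here as DNA, which every cell holds, and no marker window was at 0 in any of the 6 libraries. The part of other cells in the results was not tested.

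The authors' deposited list of Dam-Sd peaks held 5057 peaks with 5503 peak and gene pairs. In the authors' deposited list the median peak had a log2 fold change of 1.71 and a length of 770 bases. Of these peaks 88.9% held at least 1 end called higher here, 84.1% held at least 2, and 0.573% held a lower end. As the peaks are of Dam-Sd in the same study, this overlap is not independent support for the calls. Conversely 46.5% of the higher ends, but 7.75% of all tested ends, lay in a peak of the authors' deposited list. A listed gene start lay under 25.5% of the peaks, and within 1 kb of 56.8%.

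Yki-Dam was measured against Dam of Set 2, with no library in common, and was used to ask where Sd and its coactivator differ. Over 14090 windows the 2 log2 changes had r = 0.773, a description across windows that share ends. Of the 3682 windows higher in Dam-Sd, 2522 were among the 3094 higher in Yki-Dam, and 1932 windows were lower in both, of 4264 and 2862. The difference of the 2 changes was called in 197 windows (1.40%) with the Dam-Sd change higher and 310 (2.20%) with it lower. These counts were loose: the replicate block gave 1664 and 1655, the 12 libraries fitted alone 9 and 18, DESeq2's size factors 334 and 190, and library size alone 109 and 576. Leaving out 1 library gave between 59 and 1732 higher, the ends of the range being without Dam Set 1 replicate 3 and without Dam-Sd replicate 3. It gave between 71 and 884 lower, the ends being without Dam-Sd replicate 2 and without Dam-Sd replicate 3.

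The steepest excess for Sd was at lbe, a homeobox gene of muscle and heart precursors, with 2.65 (SE 0.25) in Dam-Sd and 0.23 in Yki-Dam, a difference of 2.42 (adjusted p 0.00242). Its Dam-Sd libraries held 241, 130 and 103 CPM against 30, 26.3 and 19.4 CPM in Dam, and of 28 ends tested there 18 passed as higher. The difference was called under every alternative that gave a value, as was that of CG46468, at 1.97. Those of CG15890 (2.18), CG7214 (2.07), Cyp4p3 (2.01) and CecB (1.93), an antimicrobial peptide gene, were lost when the 12 libraries were fitted alone, and that of Cyp4p3 (adjusted p 0.0484) in most fits that left out a library. The difference of CG7214 was at 0.29 without flanks (adjusted p 0.848). It and that of CecB were lost without Dam Set 1 replicate 3 or Dam Set 2 replicate 2 or 3, and that of CG7214 also without Yki-Dam replicate 1 or 3. Dfd differed by 1.80, with 2.29 in Dam-Sd against 0.50 in Yki-Dam. On the other side were Sodh2, a sorbitol dehydrogenase gene (-1.97), RpL28 (-1.95), Elp2 (-1.94), TwdlT (-1.87), GCS2alpha (-1.75) and CCT7, a chaperonin subunit gene (-1.68). Sodh2 fell in Dam-Sd from 43.4, 35.2 and 49.8 CPM to 10.4, 13.5 and 16.7 CPM and was at 0.32 in Yki-Dam. Over their own ends the differences of Sodh2, RpL28, Elp2 and CCT7 were not called. Those of GCS2alpha and CCT7 were not called when the 12 libraries were fitted alone, nor those of RpL28 and TwdlT without flanks. The Yki coactivator genes Ncoa6 and Wbp2 differed by -1.47 and -1.44, and cos by -1.75.

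**Figure D5:**
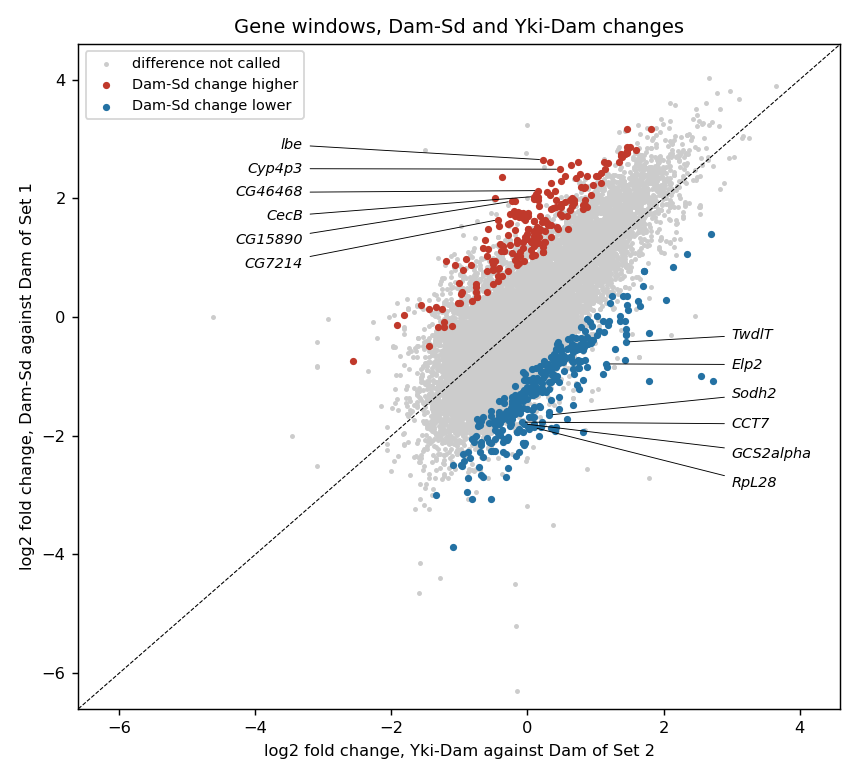
log2 fold change of each gene window in Yki-Dam against Dam of Set 2 (horizontal) and in Dam-Sd against Dam of Set 1 (vertical), with the 12 named windows of largest difference labelled. Most of the 14090 windows lie along the diagonal (r = 0.773); the 197 red and 310 blue windows are those where the difference was called.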

How the data were processed

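The deposited table holds whole-number read counts at GATC ends in 18 libraries, in dm6 coordinates. The submitters' processing notes name Subread, featureCounts, edgeR, bedtools and the build dm6, with versions not given in the sources used here. A peak list that the authors deposited has no header, and its fold changes were taken as log2 because edgeR reports them so. Nothing used here states that base, the filter behind the list or the Dam libraries it rests on.

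Reads were added up over 14206 gene windows (13946 protein-coding and 260 microRNA genes of RefSeq's Release 6 annotation, 1 kb on each side), of which 14090 passed the filter. Windows and ends were filtered with filterByExpr (minimum count 10), scaled by TMM and tested with edgeR 4.0.16's quasi-likelihood test in R 4.3.3, with all 18 libraries as 6 groups and 12 residual degrees of freedom. P-values were adjusted by Benjamini-Hochberg over all windows or ends tested and called below 0.05; the standard error is the absolute log2 fold change over the root of the F statistic. The same fit gave the Dam-Sd change minus the Yki-Dam change. The steps were tested on simulated counts. For windows counting error is small at 26163560 to 36884351 reads a library, so the spread between libraries sets the precision. Single ends can hold few reads, and the share of counting error there was not measured.

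Replicate numbers in the titles are shared by Dam-Sd and Dam of Set 1, but the titles state no pairing. Deviations of libraries with the same number from their group means had r = 0.557, 0.373 and 0.371, and those with unequal numbers -0.51 to 0.239. Deviations within a group cancel, so these values depend on each other. The main fit used no pairing, and with the replicate number as a block 4223 windows were higher and 5175 lower. Over windows, replicates of a group differed by far more than sampling noise (chi-square per degree of freedom 61.2 to 181). That spread cannot tell separate samples from technical repeats, and each library was counted as 1 replicate.

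The genes named are sd, the 14 highest and 10 lowest called windows of above-median level without overlap of libraries, in each of 38 lists the 3 highest and 2 lowest called members, genes at the largest runs of ends, and the 6 highest and 6 lowest differences to Yki-Dam. Some that fall under this rule are not printed, and others were chosen after their values were seen. The comparison, lists and genes were chosen with earlier results of these data known. Of 865 list entries 854 matched a window; the rest were not analysed here. Sequences were not used here. Alternatives were DESeq2 1.42.0, other scalings, filters, flanks and controls, a replicate block and leaving out each library.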

Additional observations from a re-analysis of the deposited data

Results flagged for a closer look

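For 29 named windows the difference between the Dam-Sd change and the Yki-Dam change was itself called, with edgeR's quasi-likelihood test, which is what brings them here. All values are log2 differences. Dam-Sd was higher at lbe (2.42), CG15890 (2.18), CG7214 (2.07), Cyp4p3 (2.01), CG46468 (1.97), CecB (1.93), RpL37A (1.87), Dfd (1.80), alrm (1.67), Ace (1.34), Cpr100A (1.23) and pb (0.93). Of the head Hox genes, Dfd and pb are in this group and lab, with a difference of 0.09 (adjusted p 0.88), is not.

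Dam-Sd was lower at Sodh2 (-1.97), RpL28 (-1.95), Elp2 (-1.94), TwdlT (-1.87), RpL40 (-1.77), Lsp1beta (-1.76), cos (-1.75), GCS2alpha (-1.75), CCT7 (-1.68), Ncoa6 (-1.47), Ir25a (-1.44), Wbp2 (-1.44), l(2)k09022 (-1.40), Klp68D (-1.35), Hsc70-5 (-1.28), Shc (-1.26) and RpL30 (-1.24).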

How the results depend on the processing

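Of 258 named windows 176 kept their direction and their side of the threshold under every alternative that gave a value, and 82 changed under at least 1, of which 33 turned direction. Outside library size as the only scaling, 57 changed. The replicate block changed no call of a named window except that of TwdlT, called lower at -0.43 (adjusted p 0.0184). The cause of these changes was not tested, apart from what each alternative leaves out by its construction.

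Counts of windows for Dam-Sd against Dam became 921 higher and 10808 lower with library size only, and 2186 and 2761 over the ends of 1 window only, where 8915 windows could be tested. Leaving out 1 library gave 3029 to 3948 higher and 3581 to 4749 lower. Counts of ends became 31870 and 28945 at an adjusted p below 0.01, and 19261 and 159719 with library size only. Leaving out 1 library gave 33586 to 56811 higher and 34245 to 71060 lower ends.

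The difference to Yki-Dam was the least stable of these counts. It became 20 higher and 30 lower at an adjusted p below 0.01, 334 and 190 with DESeq2's size factors, and 109 and 576 with library size only. The replicate block gave 1664 and 1655, and only the comparison's libraries 9 and 18. Without flanks 112 were higher, over the ends of 1 window only 72 were lower, and the DESeq2 Wald test gave 823 higher. Leaving out 1 library gave 59 to 1732 higher and 71 to 884 lower.

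With library size only, the direction turned at gcm2 (-0.02), Vha55 (-0.03), ush (-0.03), ninaE (-0.10), Mef2 (-0.12), ND-75 (-0.14), sgg (-0.15), shot (-0.15), twi (-0.16), dpy (-0.19), Vha68-2 (-0.23), bam (-0.25), pb (-0.25), ND-39 (-0.26), osk (-0.36), Prosalpha6 (-0.41), ATPsynD (-0.42), sls (-0.45), Rpt5 (-0.47), Myc (-0.49), rdgA (-0.51), brp (-0.54), Prosbeta5 (-0.58), Antp (-0.60), dpr12 (-0.78), SK (-0.96) and CG14974 (-1.14). Over the ends of 1 window only it turned at Ugt302C1 (-0.11), bam (-0.50), RpL8 (-1.76), CG8001 (-2.82) and ND-39 (-3.75). Without flanks it turned at RpS9 (-0.39), ATPsynD (-0.57), bam (-0.59), ninaE (-0.61), Prosalpha6 (-0.82), RpL8 (-1.06), CG7214 (-1.10) and repo (0.72). The uncalled window of CG14974 turned to -0.01 against the average of all Dam sets, and lay between -0.16 and 0.47 when 1 library was left out, below 0 without Dam Set 1 replicate 1 (-0.01) or Dam-Sd replicate 2.

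With 3 libraries a group, the spread between libraries limits the calls of windows more than depth does. For single ends this was not measured. Windows share ends, so neighbouring genes are not independent, and replicate 3 of Dam-Sd stood closer to Dam than the other replicates in its share of reads in the top ends. A window or end without a call is not shown to be unchanged.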
